A study of Mus musculus with 8 samples.

Results

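The 33 genes described here handle glucose and glycogen in liver or carry the insulin signal. They were chosen by name, 6 for gluconeogenesis and glucose release, 13 for glycolysis and sugar entry, 9 for glycogen and 5 for insulin signalling. All 33 reached at least 10 normalized counts in at least 4 libraries, and they stand among 13301 genes that did so, of 24972 listed. Total RNA of liver was sequenced from C57BL/6J mice aged 18 weeks, 8 weeks after an adeno-associated virus of serotype 8 (AAV8, a vector that enters hepatocytes well) was given into a vein at 10 weeks. The ATF3 group (4 libraries, ATF3 1 to 4) received AAV8-ALB-ATF3, and the Null group (4 libraries, Null 1 to 4) received AAV8-ALB-Null, an empty control, so the livers of both groups carried vector. ALB was read as the albumin promoter, which is active in hepatocytes. ATF3 is a stress-induced transcription factor of the basic leucine zipper family, and the question was which hepatic genes it regulates. The design text gives 8 mice per group and 4 libraries per group were analysed here. It is not recorded whether a library comes from 1 animal, so the p-values below describe library-to-library spread, which may be technical. The labels name neither feeding state, nor sex, nor the time of day at collection.

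The liver takes up glucose after a meal, stores it as glycogen and burns or converts the rest by glycolysis. Between meals it breaks glycogen down and makes new glucose from lactate, amino acids and glycerol. Insulin acts through its receptor and the IRS adaptor proteins to favour storage, and it keeps the transcription factor FOXO1 out of the nucleus, which lowers transcription of gluconeogenic genes and of Igfbp1. Glucagon acts against insulin through cyclic AMP.

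Atf3 itself had 5611, 5886, 7053 and 6722 normalized counts in ATF3 1 to 4, against 24.2, 22.5, 24.5 and 20.3 in Null 1 to 4 (log2 change 8.05, SE 0.11, limma adjusted p = 5.6e-11). Values are read counts per gene as the authors scaled them between libraries, and they summed to 23919261 to 28446045 per library, while the sequencing depth itself is unknown. On the first principal component, with 57.7% of the variance, the groups separated, and on the second, with 16.7%, Null 4 lay apart from the other libraries. Of the 33 genes, Null 4 held the highest Null value for 15 and the lowest for 9. The 10 Kupffer cell and macrophage markers, the 8 endothelial and the 8 stellate cell markers held no gene that passed the test, and of 5 cholangiocyte markers tested Sox9 fell. Summed macrophage markers ranged from 11706 to 16638 in ATF3 and from 10123 to 15152 in Null, and summed endothelial markers from 10486 to 10870.4 in ATF3 and from 10349 to 12484 in Null. Of 7 hepatocyte markers tested, Ttr rose and Apoa1, Serpina1a and Cps1 fell. The sum of all 7, most of it Alb, ranged from 3127290 to 3667790 in ATF3 and from 2244300 to 3507580 in Null. In such bulk samples, fewer cells of a type and less RNA per cell cannot be told apart.

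The changes within glucose metabolism ran in both directions. Of the 33 genes, 6 rose (Pcx, Pfkfb1, Gapdh, Pgk1, Ldha and Ppp1r3b) and 9 fell (Pck1, Fbp1, Gckr, Pfkfb3, Gys2, Ppp1r3c, Ppp1r3g, Insr and Igfbp1) at a limma adjusted p under 0.05, with adjustment over all 13301 genes. That is 45.5% of the 33, against 21.2% of all genes tested, of which 11.4% rose and 9.82% fell. Ppp1r3g stayed under 10 normalized counts in every ATF3 library and entered the test through Null alone, so its fall was fixed by the filter. Of the other 32 genes, 6 rose and 8 fell, or 43.8%. The median log2 change of the 33 was 0.074, against 0.0068 over all genes. The 4 ATF3 values lay wholly above or wholly below the 4 Null values for 17 of the 33, or 51.5%, against 26.3% of all genes, and for 16 of the 32 without Ppp1r3g. The genes were chosen by name with earlier results of these libraries known, so these shares are a description. Without Null 4, 10 of the 33 rose and 10 fell, or 60.6%, and over all genes 1965 rose and 1812 fell, or 28.4%, so more genes were called both among the 33 and in general. In the 33, leaving out any other single library gave 6 to 8 higher and 6 to 8 lower genes.

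**Figure D1:**
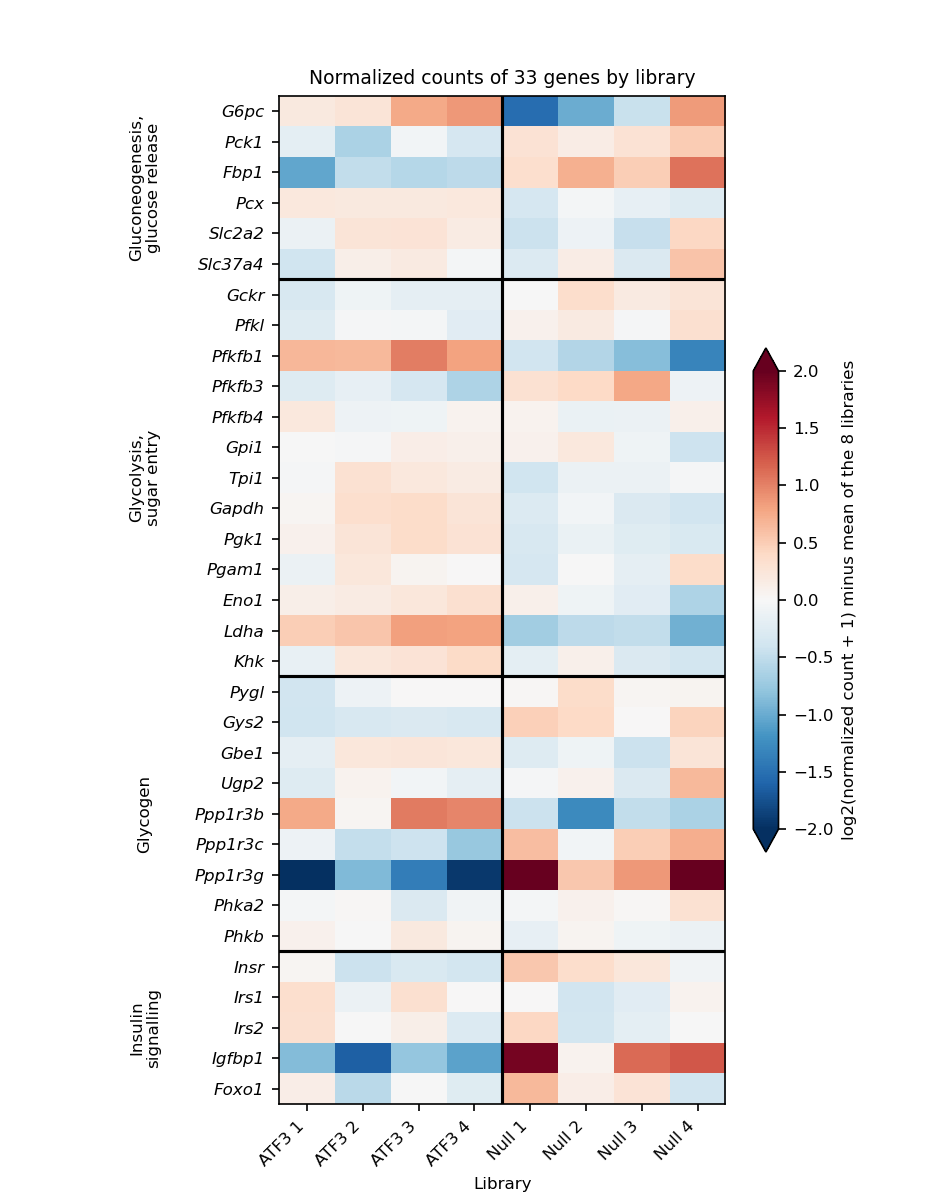
Each row is a gene and each column a library, and the colour gives log2(normalized count + 1) minus the mean of the 8 libraries for that gene, cut at -2 and 2. Ldha, Pfkfb1 and Ppp1r3b are red in the 4 ATF3 libraries and Fbp1, Ppp1r3g and Igfbp1 are blue there, while G6pc in Null 4 has the colour of the ATF3 libraries.

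Gluconeogenic genes split, with Pck1 and Fbp1 lower and Pcx, of the mitochondrial entry step, higher. Of the 6 genes, 1 rose, 2 fell and 3 did not pass, or 50% called, against 21.2% of all genes. Fbp1, the fructose bisphosphatase that opposes phosphofructokinase, had 4738, 6917, 6545 and 6778 normalized counts in ATF3 1 to 4, against 12341, 15993, 13671 and 20727 in Null 1 to 4. Every ATF3 library lay below every Null library, and the means differed 2.51-fold (log2 change -1.32, SE 0.18, limma adjusted p = 0.000544). Pck1, which makes phosphoenolpyruvate from oxaloacetate in the cytosol, had 29992, 22137, 33009.8 and 27315 normalized counts in ATF3 1 to 4, against 41919, 38179.8, 41969 and 48809 in Null 1 to 4. Again the groups did not overlap, with a smaller fall (log2 change -0.61, SE 0.14, limma adjusted p = 0.0114). The Pck1 call was lost in TPM rescaled without Mir6236 and Rn45s, at -0.36 (limma adjusted p = 0.0957), and against a 1.2-fold threshold (adjusted p = 0.131), within a range of 0.0083 to 0.708 over all alternatives. Pcx, the pyruvate carboxylase that feeds oxaloacetate into the pathway from inside mitochondria, had 15320.5, 15167, 15191 and 15374 normalized counts in ATF3 1 to 4, against 10501, 12992, 11908 and 11062 in Null 1 to 4. The ATF3 values were close together, with a coefficient of variation of 0.654%. All lay above Null (log2 change 0.40, SE 0.09, limma adjusted p = 0.0124). The Pcx call was lost against a 1.2-fold threshold (limma adjusted p = 0.43) and in the deposited TPM (limma adjusted p = 0.386).

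The genes for the last steps of glucose output did not pass the test. G6pc, the catalytic subunit of the glucose phosphatase that releases free glucose, had 7251, 7560.4, 10674 and 11514 normalized counts in ATF3 1 to 4, against 2201, 3162, 4651 and 11375 in Null 1 to 4. Null 4 lay between ATF3 3 and ATF3 4 while the other Null libraries lay below all ATF3 libraries, so the groups overlapped through Null 4 alone (log2 change 1.05, SE 0.42, limma adjusted p = 0.106, 95% interval 0.12 to 1.98). Without Null 4 the G6pc change was 1.51 (limma adjusted p = 0.00138), and over all alternatives its adjusted p ranged from 0.00138 to 0.295. Slc37a4, the carrier that brings glucose phosphate to that enzyme, had 2281, 3247, 3416 and 2911 normalized counts in ATF3 1 to 4, against 2475, 3314, 2449.6 and 4454 in Null 1 to 4. Its groups overlapped widely (log2 change -0.07, SE 0.20, limma adjusted p = 0.839), and the sign turned without ATF3 1 or without Null 4. Slc2a2, the glucose transporter GLUT2 of the hepatocyte membrane, had 8681, 11299, 11448 and 10557 normalized counts in ATF3 1 to 4, against 6999.8, 8768, 6875 and 12612 in Null 1 to 4. Null 4 was above every ATF3 library (log2 change 0.29, SE 0.19, limma adjusted p = 0.315), and without it the change was 0.48 (limma adjusted p = 0.018), within a range of 0.018 to 1 over all alternatives.

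In mm10, Fbp1 lies at chr13:62864753-62888282, Pck1 at chr2:173153048-173159273, Pcx at chr19:4510472-4621752 and G6pc at chr11:101367561-101377903, by GENCODE vM21. The starts of Pck1, G6pc, Igfbp1 and Ldha are shown because cyclic AMP and insulin are known to act on promoters of these genes, and because Pck1 fell while G6pc did not pass the test. The sequences are RefSeq's, on build GRCm38.p6 from 250 bases before to 50 after the start, on the coding strand, and capitals mark TGACG, the core of the site bound by CREB and ATF proteins, or CAAAACA, part of the insulin response sequence bound by FOXO1, on either strand. The windows are chr2:173152823-173153122 (plus strand), chr11:101367466-101367765 (plus), chr11:7197537-7197836 (plus) and chr7:46845554-46845853 (plus).
Pck1: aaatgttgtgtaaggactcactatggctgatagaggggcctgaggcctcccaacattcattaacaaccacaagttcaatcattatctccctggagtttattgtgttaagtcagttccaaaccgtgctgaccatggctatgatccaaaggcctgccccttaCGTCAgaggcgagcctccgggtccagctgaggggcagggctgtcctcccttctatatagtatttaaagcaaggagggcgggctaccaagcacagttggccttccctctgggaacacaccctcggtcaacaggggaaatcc
G6pc: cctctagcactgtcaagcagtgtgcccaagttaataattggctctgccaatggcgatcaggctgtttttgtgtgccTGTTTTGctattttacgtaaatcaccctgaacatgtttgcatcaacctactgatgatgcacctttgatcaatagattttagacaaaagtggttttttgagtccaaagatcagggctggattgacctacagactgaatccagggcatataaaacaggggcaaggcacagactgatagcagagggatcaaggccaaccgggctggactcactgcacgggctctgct
Igfbp1: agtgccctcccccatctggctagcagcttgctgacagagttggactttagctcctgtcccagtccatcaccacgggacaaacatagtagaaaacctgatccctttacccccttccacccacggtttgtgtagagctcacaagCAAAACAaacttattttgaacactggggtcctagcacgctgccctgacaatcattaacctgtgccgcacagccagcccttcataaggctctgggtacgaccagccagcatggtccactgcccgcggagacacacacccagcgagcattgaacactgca
Ldha: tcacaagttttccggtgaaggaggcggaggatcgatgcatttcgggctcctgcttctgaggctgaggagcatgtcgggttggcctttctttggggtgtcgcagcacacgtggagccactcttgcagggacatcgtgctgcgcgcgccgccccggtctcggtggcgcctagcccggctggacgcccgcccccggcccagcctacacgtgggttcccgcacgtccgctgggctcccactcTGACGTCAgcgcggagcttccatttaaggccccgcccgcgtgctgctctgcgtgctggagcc
In Pck1 the reverse match to TGACG begins at -90 from the start, in Igfbp1 the CAAAACA match begins at -108, in G6pc its reverse begins at -174, and in Ldha the palindrome TGACGTCA, made of 2 overlapping matches, begins at -12. A second annotated Ldha start, in the window chr7:46846832-46847131, has TGACG at -143. The Fbp1 window has neither motif. Among the 41 windows of the 30 genes with an entry, 31.7% held TGACG and 12.2% held CAAAACA, against 20.8% and 6.28% of all 32851 windows. TGACGTCA was in 2.44% of the 41 (Ldha) and 1.79% of all, the AP-1 site TGANTCA in 0 of the 41 and 7.81% of all, and the E-box CACGTG in 17.1% and 7.15%. These are letter matches on both strands, not measured binding.

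Among the 13 genes of glycolysis and sugar entry, transcripts of Ldha and of the bifunctional enzyme Pfkfb1 rose most. Of the 13 genes, 4 rose, 2 fell and 7 did not pass, or 46.2% called, against 21.2% of all genes. The median log2 change of the 13 was 0.33. Ldha, the lactate dehydrogenase subunit that converts pyruvate and lactate, had 22522, 23677, 28436 and 28136 normalized counts in ATF3 1 to 4, against 9904, 11157, 11346 and 8205 in Null 1 to 4. The lowest ATF3 library lay far above the highest Null library (log2 change 1.34, SE 0.13, limma adjusted p = 7.09e-05). Gapdh, often used as a loading control, had 10292, 12722, 12952 and 12053 normalized counts in ATF3 1 to 4, against 8280.3, 9703, 8263 and 7730.3 in Null 1 to 4, without overlap (log2 change 0.50, SE 0.11, limma adjusted p = 0.00904). Pgk1, the next enzyme after Gapdh, had 7442, 8434, 9072 and 8654 normalized counts in ATF3 1 to 4, against 5667, 6396, 5942 and 5728 in Null 1 to 4 (log2 change 0.50, SE 0.09, limma adjusted p = 0.00362), again without overlap. These 3 genes have processed copies in the genome. Of their 31-base stretches, 19.6% (Ldha), 28.1% (Gapdh) and 54.7% (Pgk1) also occur in transcripts of other genes, so their counts are less certain. Against a 1.2-fold threshold the calls of Gapdh and Pgk1 were lost (limma adjusted p = 0.196 and 0.119).

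Genes of the enzymes that set the phosphofructokinase activator moved in opposite directions. PFKFB proteins set the level of the bisphosphate that activates phosphofructokinase and inhibits the Fbp1 enzyme. Pfkfb1, the liver form, had 1204, 1188, 1536 and 1325 normalized counts in ATF3 1 to 4, against 579, 507, 419 and 304 in Null 1 to 4. The groups lay far apart, and the means differed 2.91-fold (log2 change 1.57, SE 0.18, limma adjusted p = 0.000226). Pfkfb3, an inducible form with mainly kinase activity, had 307, 329, 291 and 239 normalized counts in ATF3 1 to 4, against 453, 486, 626 and 340.4 in Null 1 to 4. The highest ATF3 library lay just below Null 4, the lowest Null library (log2 change -0.68, SE 0.18, limma adjusted p = 0.0217). Pfkfb4, a form best known from testis, was near the filter with 21.8 to 27.4 normalized counts in ATF3 and 21.5 to 25.2 in Null (log2 change 0.04, SE 0.20, limma adjusted p = 0.914). Gckr, a regulatory protein of the hepatocyte nucleus, had 1376, 1605, 1507 and 1515 normalized counts in ATF3 1 to 4, against 1697, 2174, 1941 and 2037 in Null 1 to 4. The fall was modest and without overlap (log2 change -0.38, SE 0.10, limma adjusted p = 0.02). Calls for Pfkfb3 and Gckr depended on single libraries: Pfkfb3 did not pass without ATF3 3, ATF3 4 or Null 2 (adjusted p = 0.0571, 0.0698 and 0.0539), and Gckr did not pass without ATF3 1, ATF3 3, ATF3 4 or Null 2 (adjusted p = 0.0501 to 0.0583). Over all alternatives the limma adjusted p ranged from 0.000785 to 0.851 for Pfkfb3 and from 0.00302 to 0.549 for Gckr.

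The other glycolytic genes did not pass. Tpi1, the triose phosphate isomerase, had 6354, 8020.1, 7522 and 7247 normalized counts in ATF3 1 to 4, against 4912, 5939, 5967 and 6346 in Null 1 to 4, without overlap by a narrow margin (log2 change 0.33, SE 0.11, limma adjusted p = 0.0558). Eno1, an enolase, had 916, 947, 982 and 1051 normalized counts in ATF3 1 to 4, against 907, 795, 719 and 550.2 in Null 1 to 4, where ATF3 1 and Null 1 nearly met (log2 change 0.41, SE 0.14, limma adjusted p = 0.0659), and 28.5% of its 31-base stretches occur in other transcripts, mainly of Eno1b. Khk, the ketohexokinase that opens fructose metabolism, averaged 4732 ± 713 normalized counts in ATF3 and 3650.0 ± 539 in Null (SD, n = 4 each) (log2 change 0.37, SE 0.14, limma adjusted p = 0.0833). Pfkl, the liver phosphofructokinase, averaged 513 ± 42.5 normalized counts in ATF3 and 622 ± 62.9 in Null (SD, n = 4 each) (log2 change -0.28, SE 0.11, limma adjusted p = 0.0928). Gpi1, which interconverts hexose phosphates, and Pgam1, the phosphoglycerate mutase, stood at 0.10 and 0.08 on the log2 scale, with 95% intervals of -0.19 to 0.39 and -0.24 to 0.41. Shared 31-base stretches made up 37.1% of Pgam1, 21.6% of Gpi1 and 10.5% of Tpi1, so these counts are less certain too. Tpi1 passed without ATF3 1 or Null 4 (adjusted p = 0.035 and 0.0249, range 0.00049 to 0.861 over all alternatives), Khk without ATF3 1 or Null 2 (0.0249 and 0.0418, range 0.00712 to 0.782) and Eno1 without Null 1 (0.0271, range 0.0114 to 0.641). The sign of Gpi1 turned without Null 4, that of Pgam1 without Null 1 and that of Pfkfb4 without ATF3 1.

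**Figure D2:**
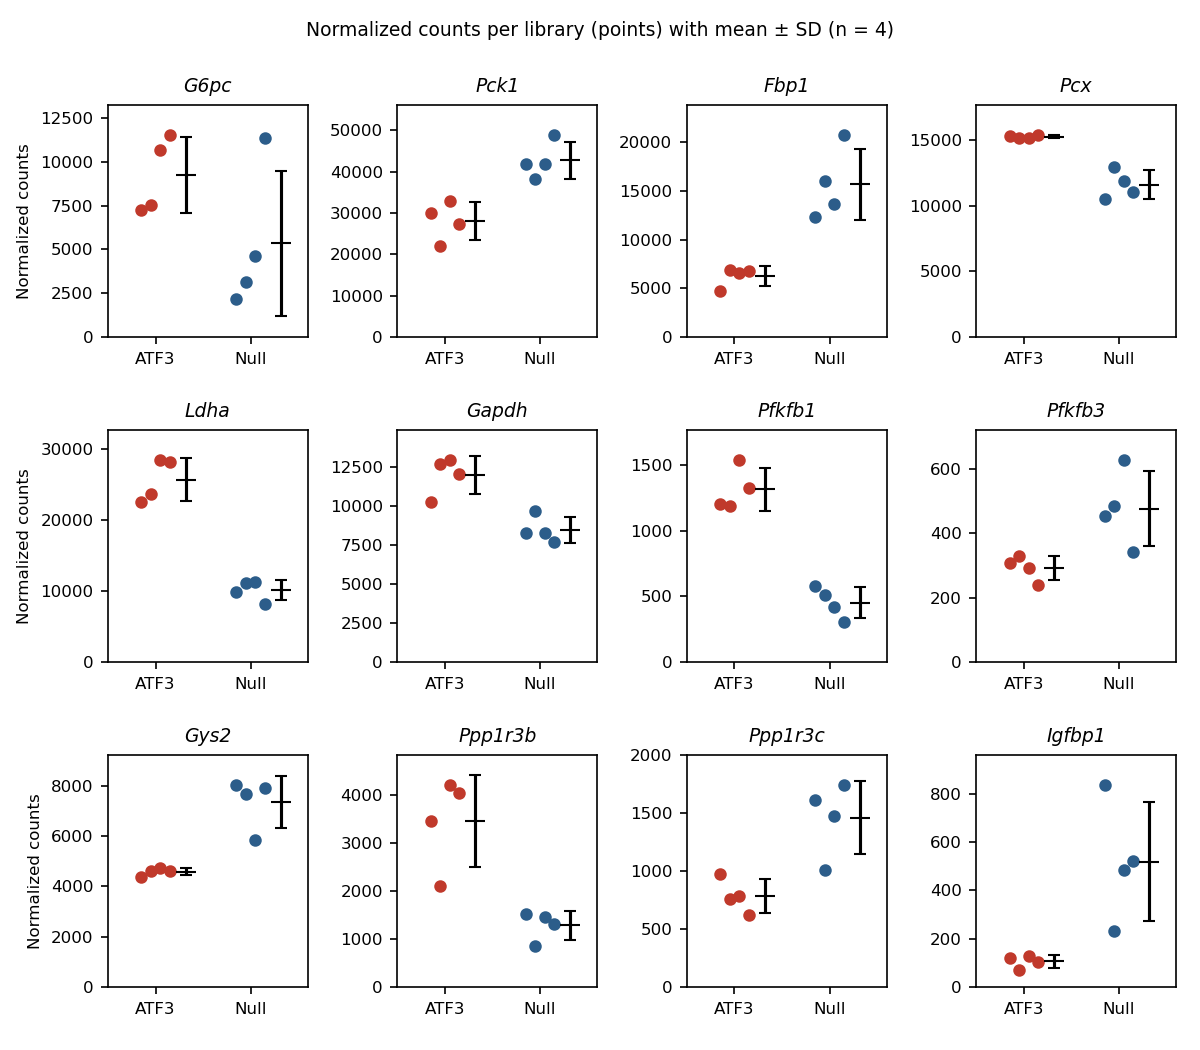
Normalized counts of 12 genes on linear axes from 0, with 1 point per library and the mean ± SD of 4 libraries beside each group (ATF3 left, Null right). The groups are apart for all but G6pc, where Null 4 at 11375 sits among the ATF3 libraries.

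Among glycogen genes, the synthase and a subunit that targets protein phosphatase to glycogen fell, while another such subunit rose. Leaving out Ppp1r3g, whose fall the filter fixed, 1 of 8 genes rose, 2 fell and 5 did not pass. That is 37.5% called, against 21.2% of all genes, and the median log2 change was -0.20. Gys2, the liver glycogen synthase, had 4387, 4633, 4741 and 4619 normalized counts in ATF3 1 to 4, against 8029.9, 7674, 5834 and 7929 in Null 1 to 4. The 4 ATF3 values were close together and all below Null (log2 change -0.67, SE 0.11, limma adjusted p = 0.0021). Ppp1r3b, the main liver subunit that brings the phosphatase to glycogen and so promotes synthase activity, had 3463, 2107, 4209 and 4046 normalized counts in ATF3 1 to 4, against 1516, 850.1, 1463 and 1322 in Null 1 to 4. ATF3 2 was the lowest of its group and Null 2 the lowest of its own, and the groups did not overlap (log2 change 1.41, SE 0.24, limma adjusted p = 0.00235). Ppp1r3c, a related subunit, had 979, 758, 789 and 623 normalized counts in ATF3 1 to 4, against 1614, 1014, 1479 and 1743 in Null 1 to 4. Here ATF3 1 and Null 2 nearly met (log2 change -0.88, SE 0.18, limma adjusted p = 0.00699). Ppp1r3g, another such subunit of low abundance, had 0.482, 3.33, 2.07 and 1.11 normalized counts in ATF3 1 to 4, against 45.9, 10.6, 13.6 and 50.3 in Null 1 to 4. These values are a description, since the gene was tested only because of its Null libraries, and its log2 change of -3.31 depends on the added 1.

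Genes for glycogen breakdown and for the remaining steps of its synthesis did not pass. Pygl, the liver glycogen phosphorylase, had 8008, 9683, 10483 and 10431 normalized counts in ATF3 1 to 4, against 10541, 13446, 10723 and 10842 in Null 1 to 4, where ATF3 3 and Null 1 nearly met (log2 change -0.24, SE 0.12, limma adjusted p = 0.195). Ugp2, which makes UDP-glucose, averaged 8691 ± 869.6 normalized counts in ATF3 and 10286 ± 2987 in Null (SD, n = 4 each) (log2 change -0.21, SE 0.18, limma adjusted p = 0.453). Gbe1, the branching enzyme, had 3655, 4835, 4876 and 4803 normalized counts in ATF3 1 to 4, against 3446, 3872, 3051 and 4915 in Null 1 to 4 (log2 change 0.26, SE 0.15, limma adjusted p = 0.267). Without Null 4, the highest library, the Gbe1 change was 0.39 (limma adjusted p = 0.0392), within a range of 0.00804 to 1 over all alternatives. Phka2 and Phkb, subunits of the kinase that activates phosphorylase, stood at -0.19 and 0.16 on the log2 scale, with 95% intervals of -0.43 to 0.05 and -0.03 to 0.36.

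In insulin signalling, Igfbp1 and the receptor gene fell, and the adaptors and Foxo1 did not pass. Of the 5 genes, 0 rose, 2 fell and 3 did not pass, or 40% called, against 21.2% of all genes. Their median log2 change was -0.33, the value of Foxo1. Igfbp1, a secreted binder of insulin-like growth factors that insulin is known to repress, had 120.4, 70.3, 129 and 105 normalized counts in ATF3 1 to 4, against 836, 233, 485 and 524 in Null 1 to 4. The highest ATF3 library held less than the lowest Null library, which was Null 2, and Null itself spread widely (log2 change -2.18, SE 0.34, limma adjusted p = 0.00141). Insr, the insulin receptor, had 6364, 4598, 5017 and 4810.2 normalized counts in ATF3 1 to 4, against 8934, 7903, 7245 and 5896 in Null 1 to 4. ATF3 1 lay above Null 4, so the groups overlapped (log2 change -0.52, SE 0.15, limma adjusted p = 0.0281). The Insr call was lost without ATF3 2, ATF3 3, ATF3 4, Null 1, Null 2 or Null 3 (limma adjusted p = 0.0552 to 0.0831, and 0.000956 to 0.605 over all alternatives). Irs1 and Irs2, the adaptors that the receptor phosphorylates, averaged 1792 ± 275 normalized counts in ATF3 and 1482 ± 213 in Null (SD, n = 4 each) and 1207 ± 206 normalized counts in ATF3 and 1157 ± 280.4 in Null (SD, n = 4 each). On the log2 scale Irs1 stood at 0.27 (95% interval -0.04 to 0.58) and Irs2 at 0.07 (95% interval -0.32 to 0.47), and the sign of Irs2 turned without ATF3 1 or Null 2. Of Irs1, 30.7% of the 31-base stretches also occur in Gm9747 and other transcripts. Foxo1 had 1102, 698, 999.9 and 853 normalized counts in ATF3 1 to 4, against 1577, 1104, 1219.7 and 776 in Null 1 to 4, with overlap (log2 change -0.33, SE 0.21, limma adjusted p = 0.302), and without Null 4, the lowest Null library, its change was -0.51 (limma adjusted p = 0.0425), within a range of 0.0425 to 1 over all alternatives.

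**Figure D3:**
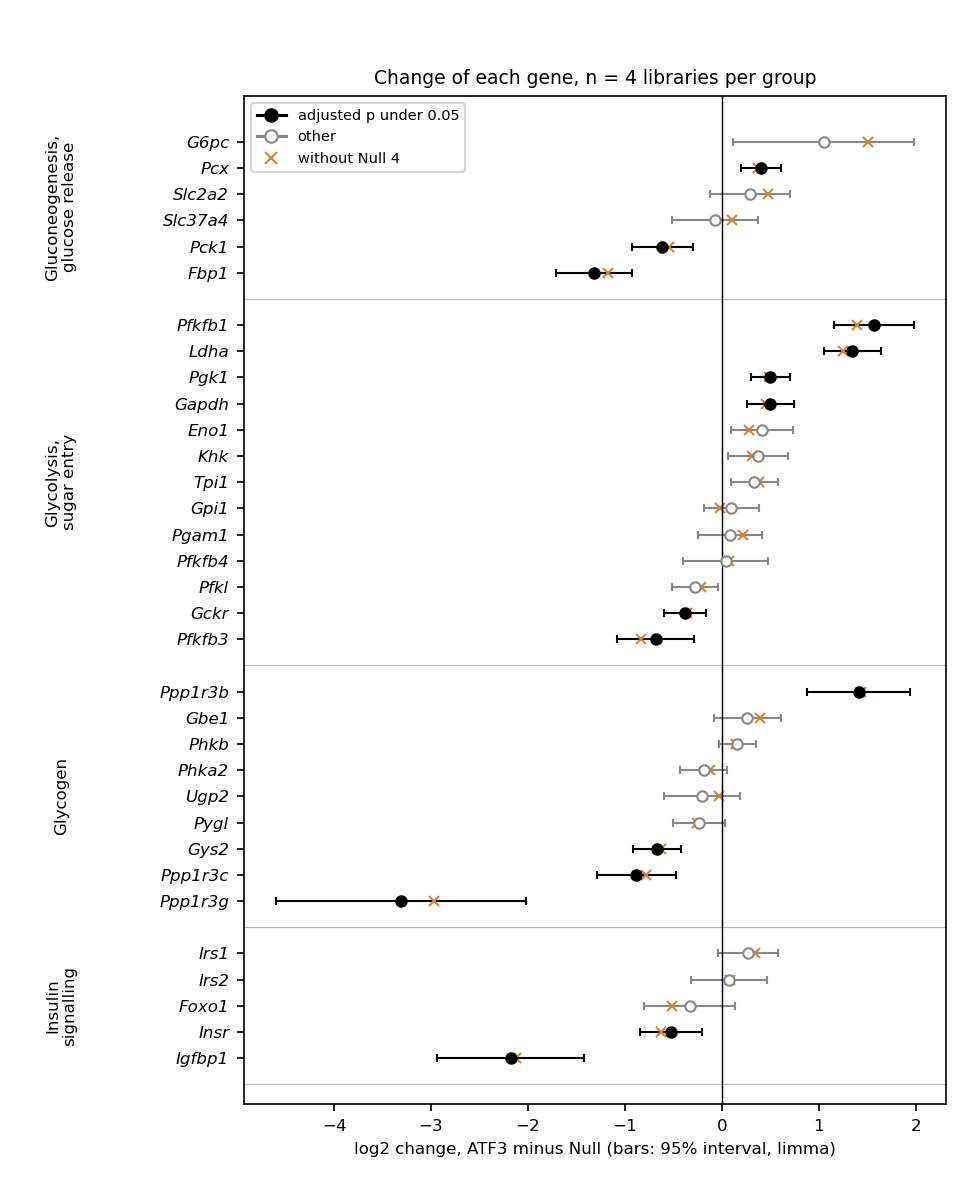
Log2 change (ATF3 minus Null, on log2(normalized count + 1)) of the 33 genes by group of function, with 95% intervals from limma, filled points for an adjusted p under 0.05 and crosses for the change without Null 4. Ppp1r3g at -3.31 and Igfbp1 at -2.18 are the lowest and Pfkfb1 at 1.57 the highest, and the cross of G6pc lies at 1.51 against a point at 1.05.

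Ratios of gene pairs within a library hardly depend on how libraries were scaled, since both genes share the factor. The 6 pairs tested were chosen with earlier results of these libraries known, so their p-values describe the libraries and are no independent support. Log2 ratios of normalized counts (each + 1) were compared by an exact two-sided permutation test over 70 assignments, whose smallest p is 0.0286. Pfkfb1 over Pfkfb3 was 1.97, 1.85, 2.40 and 2.46 in ATF3 1 to 4, against 0.35, 0.06, -0.58 and -0.16 in Null 1 to 4. The ratio was thus 4.76-fold higher in ATF3 (exact permutation p = 0.0286, adjusted over 6 pairs 0.0571). Fbp1 over Pfkl was 3.32, 3.64, 3.58 and 3.82 in ATF3 1 to 4, against 4.36, 4.65, 4.63 and 4.88 in Null 1 to 4, 2.05-fold lower in ATF3 at the same p and adjusted p. Pck1 over Pcx was 0.97, 0.55, 1.12 and 0.83 in ATF3 1 to 4, against 1.997, 1.56, 1.82 and 2.14 in Null 1 to 4, 2.02-fold lower in ATF3, also at the same p and adjusted p. In these 3 pairs every ATF3 library lay beyond every Null library, and the adjusted p did not pass 0.05. For Pfkfb1 over Pfkfb3 and Pck1 over Pcx this had to follow, since both genes lay apart, in opposite directions. With 3 of 6 pairs at the smallest p, the adjusted p could not fall under 0.0571, so the adjusted test could not decide here.

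In the remaining pairs the groups overlapped. G6pc over Slc37a4 was 1.67, 1.22, 1.64 and 1.98 in ATF3 1 to 4, against -0.17, -0.07, 0.92 and 1.35 in Null 1 to 4 (exact permutation p = 0.0571, adjusted 0.0686), and Null 3 and Null 4 were the Null libraries nearest to ATF3. Gys2 over Pygl was -0.87, -1.06, -1.14 and -1.18 in ATF3 1 to 4, against -0.39, -0.81, -0.88 and -0.45 in Null 1 to 4 (exact permutation p = 0.0571, adjusted 0.0686). Irs1 over Irs2 had a mean log2 ratio of 0.573 ± 0.175 in ATF3 and 0.376 ± 0.214 in Null (SD, n = 4 each; exact permutation p = 0.229, adjusted 0.229). A further pair was chosen after the ratios were seen and is given without a test. Ppp1r3b over Ppp1r3c was 1.82, 1.47, 2.41 and 2.70 in ATF3 1 to 4, against -0.09, -0.25, -0.02 and -0.40 in Null 1 to 4. All ATF3 libraries lay above all Null libraries, which had to follow, since Ppp1r3b lay wholly above Null and Ppp1r3c wholly below.

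**Figure D4:**
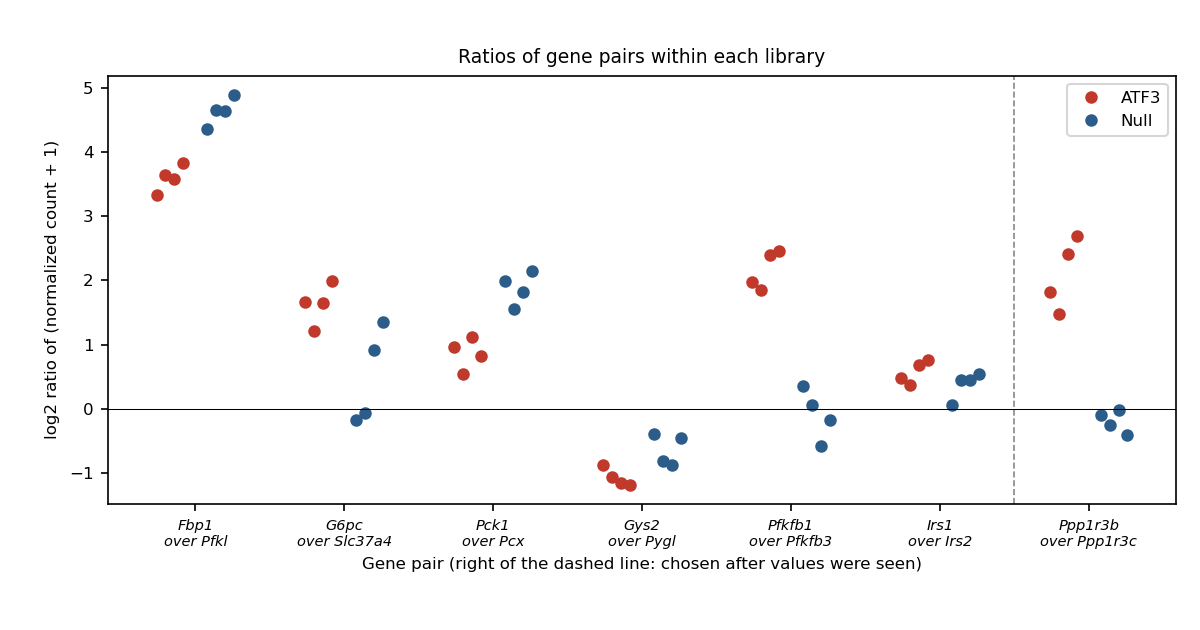
Log2 ratio of (normalized count + 1) for 7 gene pairs, 1 point per library (ATF3 left, Null right of each pair), with the pair right of the dashed line chosen after its values were seen. Pfkfb1 over Pfkfb3 lies between 1.85 and 2.46 in ATF3 and between -0.58 and 0.35 in Null.

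Per transcript length, the order of the most abundant genes differed between groups. TPM values, rescaled without Mir6236 and Rn45s, were used here, since Mir6236 took from 0.308% to 89.4% of the deposited TPM. On that scale the median log2 change of all genes was 0.20, with 4025 higher and 562 lower. Values of a gene in ATF3 and Null thus differ partly by scaling from those in normalized counts. Ldha had a median level in TPM of 1061 (879.7 to 1134) in ATF3 and 365 (252 to 395) in Null (lowest to highest of 4 libraries), rank 1 of 33 in ATF3 and 4 in Null. Pck1 had a median TPM of 690.0 (471 to 758) in ATF3 and 848 (736 to 859) in Null, rank 2 in ATF3 and 1 in Null. Fbp1 had a median TPM of 288 (233 to 305) in ATF3 and 566 (493 to 711) in Null, rank 6 in ATF3 and 2 in Null. Within ATF3 the ranges of Ldha and Pck1 did not overlap, and within Null those of Pck1 and Fbp1 did not. Near the top, Gapdh had rank 3 in both groups (597 to 675 in ATF3, 312 to 429 in Null). It overlapped Pck1 in ATF3 and Ldha in Null. In ATF3 Fbp1 overlapped Tpi1 at rank 5 (282 to 300). Neighbours in the middle of the order overlapped too. There Pcx stood at 208 (192 to 230.0) in ATF3 and 135 (116 to 149) in Null. Khk stood at 204 (178 to 236) in ATF3 and 134 (107 to 162) in Null. Pfkfb1 at 50.6 (42.0 to 57.9) in ATF3 and 15.05 (8.85 to 19.7) in Null exceeded Pfkfb3 at 3.497 (2.83 to 3.99) in ATF3 and 4.79 (3.08 to 6.43) in Null in both groups, and in Null the gap was smaller. Ppp1r3g and Pfkfb4 were the lowest, under 1.06 TPM in every library.

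**Figure D5:**
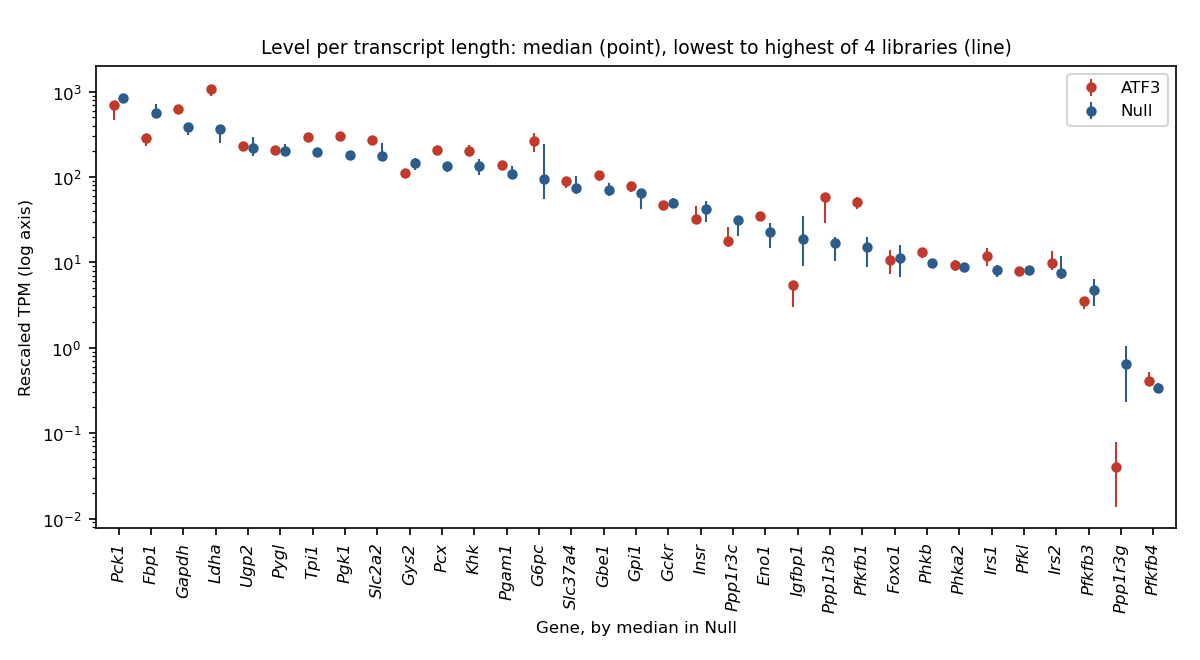
Rescaled TPM of the 33 genes on a log axis, ordered by the Null median, with points for medians and lines from the lowest to the highest of 4 libraries (ATF3 left, Null right of each pair). Ldha reaches 1061 in ATF3 against 365 in Null, and Ppp1r3g lies at 0.0407 in ATF3 against 0.653 in Null. On this scale the median log2 change of all genes is 0.20.

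The coefficient of variation was larger in Null for 25 of the 33 genes, with a median of 12.1% in ATF3 and 18.0% in Null. It was highest for Ppp1r3g in ATF3 (71.0%) and for G6pc in Null (77.5%), and lowest for Pcx in ATF3 (0.654%) and for Pgk1 in Null (5.57%). Null 4, the highest or lowest Null library for 24 of the 33, carried part of that spread. Without it the median in Null was 12.9%, and Null was the larger for 20 genes. The Null value without it was 37.0% for G6pc, 14.0% for Slc2a2 and 12.9% for Ugp2, against 77.5%, 30.4% and 29.0% with it. The difference in spread between groups was not tested.

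Other genes of the same pathways were taken from 6 lists with 149 tested genes, of which 29 rose and 18 fell. The share called was 31.5%, against 21.2% of all genes, and the median log2 change was 0.034. Of 21 other genes of gluconeogenesis and glucagon action, 9 rose and 2 fell, or 52.4%. The alanine aminotransferase gene Gpt2 averaged 21681 ± 2156 normalized counts in ATF3 and 10858 ± 1356 in Null (SD, n = 4 each), and the coactivator gene Ppargc1a averaged 631 ± 53.8 normalized counts in ATF3 and 369 ± 35.1 in Null (SD, n = 4 each), with log2 changes of 1.0006 and 0.77 (limma adjusted p = 0.000236 and 0.000634). Gpd1, a glycerol phosphate dehydrogenase, and Creb3l3, a hepatic factor of the bZIP family, rose by 0.80 and 0.64 on the log2 scale. The 2 that fell were the regulator genes Crtc2 and Nr3c1, with log2 changes of -0.82 and -0.41 (limma adjusted p = 0.00494 and 0.00339). Of 27 other genes of glycolysis and hexose handling, 6 rose and 1 fell, or 25.9%. Sord, the sorbitol dehydrogenase, Galm, a sugar mutarotase, and Pfkfb2, a further PFKFB form, rose by 0.55, 0.51 and 0.47 on the log2 scale.

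Of 21 genes of pyruvate entry and the pentose phosphate pathway, 6 rose and 0 fell, or 28.6%, against 21.2% of all genes. G6pdx, the first enzyme of the pentose phosphate pathway, had 202, 237, 191 and 233 normalized counts in ATF3 1 to 4, against 95.4, 95.7, 108 and 148 in Null 1 to 4 (log2 change 0.96, SE 0.16, limma adjusted p = 0.00225). Pgd, Rpia and Taldo1 of the same pathway rose by 0.93, 0.81 and 0.61 on the log2 scale. Of 24 other glycogen genes, 3 rose and 0 fell, or 12.5%, a share below that of all genes. The 3 that rose were Ugdh, Pgm2 and Pgm3, with log2 changes of 1.48, 0.46 and 0.91. Ugdh oxidises UDP-glucose away from glycogen and Pgm3 belongs to hexosamine synthesis, while Pygb, the brain phosphorylase, did not pass at a log2 change of 0.38 (limma adjusted p = 0.0598).

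Of 40 other insulin signalling genes, 2 rose and 10 fell, or 30%, against 21.2% of all genes. The median log2 change of the 40 was -0.20. Trib1 and Trib3, pseudokinases of which Trib3 is known to bind the kinase AKT, fell. Trib1 had 230.3, 207, 184 and 154 normalized counts in ATF3 1 to 4, against 1281, 1288, 882 and 741 in Null 1 to 4 (log2 change -2.41, SE 0.20, limma adjusted p = 2.2e-05). Trib3 had 57.5, 48.9, 65.9 and 38.0 normalized counts in ATF3 1 to 4, against 316, 272, 323 and 120.3 in Null 1 to 4 (log2 change -2.20, SE 0.31, limma adjusted p = 0.000722). Tsc1 and Eif4ebp1, an upstream inhibitor and a target of the mTOR kinase, fell by 0.63 and 0.70 on the log2 scale. The kinase gene Mtor itself, Rictor and Akt1 fell too, with log2 changes of -0.49, -0.51 and -0.44 (limma adjusted p = 0.00387, 0.00489 and 0.0212). Of 16 carbohydrate and insulin response factors, 3 rose and 5 fell, or 50%. Srebf1, which insulin is known to induce in liver, had 9014, 9132, 9975 and 9914 normalized counts in ATF3 1 to 4, against 3763, 4439, 3394 and 3931 in Null 1 to 4 (log2 change 1.30, SE 0.10, limma adjusted p = 1.4e-05). Mlx, the partner of the carbohydrate response factor ChREBP, rose by 0.64 on the log2 scale, and the hepatocyte factors Cebpa and Foxa3 fell by 0.60 and 0.65 on that scale.

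Directions refer to the authors' scaling. In the deposited TPM as it stands the median log2 change of all genes was 0.68, and Pck1, Gckr, Pfkfb3, Gys2, Ppp1r3c and Insr stood above 0 there, at 0.39, 0.57, 0.10, 0.33, 0.079 and 0.44, with no call. There 12 of the 15 calls were lost. Relative to that median, all 15 called genes had the same sign as in the normalized counts. With TPM rescaled by median of ratios all 15 passed again.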

How the data were processed

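Liver RNA of 8 libraries, 4 per group, was extracted with a mirVana kit and made into stranded total RNA libraries, per the labels' protocols. The submitters' processing notes name Bowtie2 and mm10, and the design text names Illumina software; the counting tool, its strand setting and annotation were not given in the sources used here. The authors deposited normalized counts (a signal: estimated counts per gene divided by a factor per library, by the table's name a DESeq scaling) and TPM, which is scaled by transcript length and to a fixed total. Of the low normalized counts, 14.1% to 30.1% per library lay within 0.01 of whole steps, so reads were not recovered and depth is unknown.

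The fit used limma 3.58.1 in R 4.3.3 (eBayes with a trend, two-sided) on log2(normalized count + 1), for 13301 genes that reached 10 or more in 4 or more libraries, with Benjamini-Hochberg adjustment over all of them calling an adjusted p under 0.05. The added 1 makes changes of low genes look smaller. The unit is a signal, so no count model was run. Replicates were numbered by order, and the numbers pair no libraries. Members, gene lists and pairs were chosen with earlier results of these data known. Named genes were Atf3, all 33 members and, of each other list, up to 4 with the smallest p; marker genes were named after their values were seen, and some results are not reported here. The fit was tested on simulated data. Shared 31-base stretches were counted in GENCODE vM21 transcripts, on both strands. Alternatives covered the value added, filters, scalings, TPM, variance models, library weights, a fold threshold and each library left out. Tables and figures came from Python 3.11.15 with pandas 2.3.3, numpy 2.4.6 and, for drawing, matplotlib 3.10.9.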

Additional observations from a re-analysis of the deposited data

Results flagged for a closer look

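In 4 of 66 groups of 4 libraries (33 genes, 2 groups), 1 library lay apart from the other 3 by a gap larger than the Dixon limit for 4 values, as a share of the whole range of its group. Chance flags about 1 in 20 groups. ATF3 1 was low for Fbp1, at 4738 normalized counts against 6545 to 6917 in the other ATF3 libraries. It was also low for Gbe1, at 3655 against 4803 to 4876. Null 2 was high for Pygl, at 13446 against 10541 to 10842 in the other Null libraries. Null 3 was low for Gys2, at 5834 against 7674 to 8029.9.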

How the results depend on the processing

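No paired analysis was possible because replicate numbers were given by order. Over 22 alternatives, 641 of 724 values of the 33 genes kept direction and side of the threshold, 36 lost the call (6 of them also turned sign), 28 gained it and a further 19 turned sign without a call. Against 1513 higher and 1306 lower genes of all tested, and 6 and 9 of the 33, the deposited TPM gave 440 and 76 of all, 2 and 1 of the 33, and 3 and 0 of the other lists (29 and 18 in the normalized counts). TPM without Mir6236 and Rn45s, chosen after the data were seen, gave 4025 and 562 of all, 15 and 5 of the 33, and 53 and 8 of the lists, with a median change of 0.20. A fold threshold of 1.2 gave 675 and 514 of all, 3 and 5 of the 33, and 15 and 6 of the lists. Array weights, lowest for Null 4 (0.228), gave 2271 and 2130 of all, 13 of the 33 higher, and 34 of the lists lower.

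Leaving out each library gave 1040.0 to 1965 higher and 851 to 1812 lower genes of all (851 without ATF3 3), 6 to 10 higher and 6 to 10 lower of the 33, and 22 to 36 and 12 to 27 in the lists. Of the 6 pair ratios, 0 passed after adjustment with all libraries (3 at an unadjusted exact permutation p under 0.05). With 1 library left out 0 to 4 passed, 4 without Null 3 or Null 4. Passing there required 4 pairs at the smallest possible permutation p, which gave an adjusted p of 0.0429. These counts thus could not decide either. The signs that turned in the deposited TPM were those of Pck1 (0.39), Slc37a4 (0.90), Gckr (0.57), Pfkl (0.51), Pfkfb3 (0.10), Pygl (0.76), Gys2 (0.33), Ugp2 (0.79), Ppp1r3c (0.0794), Phka2 (0.59), Insr (0.44), Foxo1 (0.54), Tsc1 (0.21), Eif4ebp1 (0.28), Foxa3 (0.33) and Cebpa (0.40). In TPM without Mir6236 and Rn45s they were Slc37a4 (0.18), Pygl (0.0154), Ugp2 (0.0482) and Phka2 (0.0602). Slc37a4 also turned with array weights (0.0599) and Pfkfb4 with quantile normalization (-0.0131). With 1 library left out, values ranged from -0.18 to 0.11 for Slc37a4, -0.025 to 0.081 for Pfkfb4, -0.024 to 0.18 for Gpi1, -0.015 to 0.22 for Pgam1 and -0.033 to 0.22 for Irs2. The cause was not tested.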
